A study of Mus musculus with 2 samples.

Results

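The chemokines are small secreted proteins that direct white cells along a concentration gradient, and 10 of their genes were followed here through the cells of the mouse kidney cortex: Cxcl9, Cxcl10, Cxcl16, Cxcl1, Cxcl12, Cx3cl1, Ccl2, Ccl5, Ccl8 and Ccl20. They are 10 of the 31053 genes counted, and each symbol matched 1 row of the feature list. The genes were chosen by their UMI levels per class and their differences between these 2 libraries, so these levels and ratios are a description, with no test. The 46 chemokine ligand genes and 23 chemokine receptor genes in the feature list form the wider family, and all but the 10 are given more briefly.

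CXC chemokines with the ELR motif, such as Cxcl1, mainly draw neutrophils through Cxcr2, while Cxcl9 and Cxcl10 lack that motif, are induced by interferons and draw T and NK cells through Cxcr3. CC chemokines such as Ccl2 draw monocytes through Ccr2, and Cxcl16 and Cx3cl1 are made as membrane-bound proteins that can also be shed. In the kidney, chemokines made by tubule, vessel and resident immune cells take part in the entry of white cells after injury.

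In mm10 (GENCODE M21), Cxcl1 at chr5:90891241-90893115, Cxcl9 at chr5:92321347-92328079 and Cxcl10 at chr5:92346638-92348889 lie in 1 region of chromosome 5. The CC genes Ccl2 at chr11:82035571-82037453, Ccl8 at chr11:82115185-82116799 and Ccl5 at chr11:83525778-83530518 share chromosome 11 with Cxcl16 at chr11:70453983-70459984. The others are Cxcl12 at chr6:117168535-117181367, Cx3cl1 at chr8:94772009-94782427 and Ccl20 at chr1:83116766-83119167. All 10 are protein-coding genes.

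The study compared kidney cortex of PT I-PpoI mice with that of wild-type mice by single-cell RNA sequencing, all at 16 weeks of age. PT I-PpoI mice express I-PpoI, a homing endonuclease that cuts a small number of genomic sites and so makes double-strand breaks, in proximal tubule epithelial cells; the promoter that drives it, the strain and the sex are not given in the sources used here. Each group is 1 library, the labels do not say how many animals went into it, and no p-value can be had. Every interval below is a 95% interval that covers counting error only, and every difference has no replicate check.

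After cell calling and filters, 5079 cells were kept in PT I-PpoI, against 11943 in wild type, with medians of 11186 and 2699 UMIs (unique molecular identifiers, each 1 captured transcript). The kept cells share 22 barcodes between the libraries. Clusters were named only by marker lists, so each class name below stands for cells like that type (macrophage-like, endothelial-like and so on), and differences can come from these rebuilt names. Levels are given as CPM, the UMIs of a gene scaled to a class total of 1e+06 UMIs. A ratio is given where a class had 50 or more cells in each library, which 13 classes had; proximal tubule had 166 against 5905 cells, and its PT I-PpoI cells lay mostly in 1 cluster. The median log2 ratio of all genes tested was 0.12 in macrophages, 0.12 in T cells, 0.19 in endothelial cells, 0.10 in parietal epithelial cells, 0.09 in the thick ascending limb and 0.32 in proximal tubule. Estimated free RNA was lower in PT I-PpoI in these classes, for example 5.09% against 12.0% of UMIs in macrophages. The sum of 16 immediate early genes was 15340 against 12299 CPM in macrophages and 10740 against 5478 in endothelial cells, and heat-shock genes summed to 11353 against 3555 and 10022 against 3833. With estimated free RNA subtracted, the macrophage log2 ratios given below were 3.65 for Cxcl9, 0.27 for Cxcl16, 1.99 for Ccl2 and 2.61 for Ccl8. Each lay within its counting interval. The part of the other differences in the results below was not tested.

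**Figure D1:**
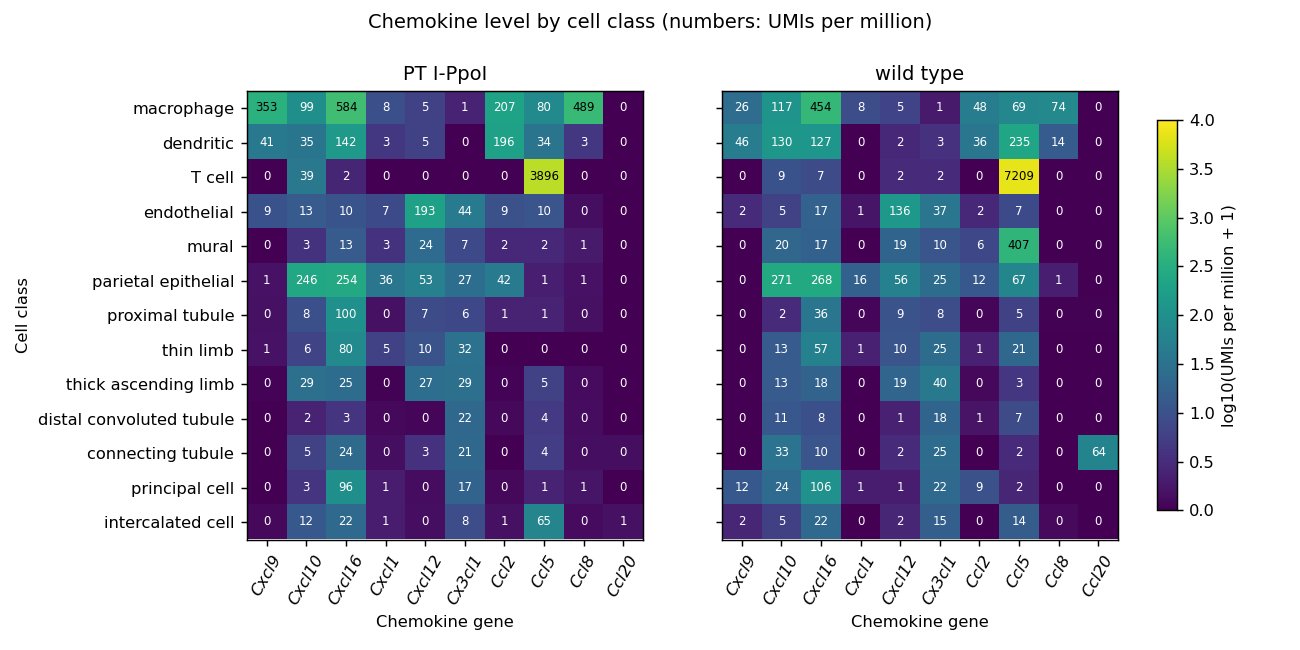
Level of the 10 chemokine genes (columns) in the 13 compared cell classes (rows) in PT I-PpoI (left) and wild type (right). Colour is log10 of CPM plus 1 and the printed number is CPM. Most Ccl5 stood in T cells (3896 in PT I-PpoI, against 7209 in wild type), and Cxcl9, Ccl2 and Ccl8 stood mainly in myeloid classes.

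Cxcl9, the first of the interferon-inducible pair, was held mainly by macrophages in PT I-PpoI and by macrophages and dendritic cells in wild type. Macrophages held 503 Cxcl9 UMIs in PT I-PpoI, against 54 in wild type, or 353 (323 to 385) and 25.9 (19.4 to 33.7) CPM. The log2 ratio was 3.76 (3.36 to 4.20), so Cxcl9 was higher in PT I-PpoI. Very few cells carried it: 11 of 253 macrophages in PT I-PpoI had any Cxcl9 UMI, against 13 of 686 in wild type. The 5 highest macrophages held 222, 105, 72, 48 and 39 UMIs in PT I-PpoI, against 12, 12, 8, 8 and 6 in wild type. The highest cell alone held 35.0% of all Cxcl9 UMIs of the PT I-PpoI library. Without the highest cell of each library the ratio was 3.28, and without the 5 highest, a comparison chosen after seeing the data, it was 1.63, from 17 and 8 UMIs. Thinned to 2000 UMIs per cell, 3.63% (1.67 to 6.78) of macrophages in PT I-PpoI, against 1.20% (0.48 to 2.46) in wild type had a Cxcl9 UMI, and these intervals overlap. Thinning leaves out cells under 2000 UMIs, here 5 of 253 in PT I-PpoI, against 104 of 686 in wild type, and every thinned share is of the cells that remain. Unthinned, the shares were 4.35% and 1.90%. T cells, which should lack the gene, had 0% in both libraries, which allows up to 2.52% in PT I-PpoI and 1.09% for wild type. The median macrophage held 4960 UMIs in PT I-PpoI, against 2706 in wild type, and the median T cell 4312, against 2392.

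Other classes held less Cxcl9 in PT I-PpoI. Dendritic cells, a class that also holds monocyte-like cells, had 40.7 CPM in PT I-PpoI, against 46.1 in wild type, a log2 ratio of -0.18 (-0.78 to 0.42). At a finer clustering, made anew rather than by dividing this class, the dendritic and monocyte-like clusters had opposite differences. In wild type these clusters held 10 and 52 Cxcl9 UMIs, against 51 in the class, so they include cells of another class. Cxcl9 was higher in PT I-PpoI in the dendritic cluster, at 61.1 against 18.5 CPM, from 44 and 10 UMIs in 9 of 59 and 3 of 113 cells. It was lower in monocyte-like cells, at 6.53 against 94.4 CPM, from 3 and 52 UMIs in 2 of 55 and 4 of 117 cells. In wild type the dendritic interval (34.3 to 60.6) lay just above that of macrophages, whereas in PT I-PpoI macrophages were far above. Endothelial cells had 9.33 against 2.11 CPM, from 15 of 843 and 3 of 2085 cells. In wild type 21 of the Cxcl9 UMIs lay in a single principal cell.

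Cxcl10, the second of the pair, had a different distribution and no such difference in its leading class. Parietal epithelial cells, which line Bowman's capsule, had 424 UMIs in PT I-PpoI, against 232 in wild type, or 246 (223 to 270) and 271 (237 to 308) CPM. The log2 ratio was -0.14 (-0.37 to 0.10), an interval that spans 0. A UMI was seen in 45 of 91 parietal epithelial cells in PT I-PpoI, against 22 of 100 in wild type. After thinning the shares were 22.5% (14.3 to 32.6) and 11.5% (5.65 to 20.1), with overlapping intervals, beside 4.20% and 1.46% of T cells. Macrophages came next in PT I-PpoI among the classes with 50 or more cells, at 98.9 against 117 CPM, with a log2 ratio of -0.25 (-0.56 to 0.06). In wild type, macrophages (103 to 133) and dendritic cells (110 to 153) did not differ beyond their intervals. In PT I-PpoI, dendritic cells had 35.5 CPM against 130 in wild type, and the log2 ratio was -1.86 (-2.41 to -1.37). At a finer clustering that difference stood in monocyte-like cells, with 6.53 against 207 CPM, from 2 of 55 and 8 of 117 cells; the dendritic cluster had 52.8 against 55.4.

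Tubule cells also held Cxcl10. The thick ascending limb had 535 UMIs in PT I-PpoI, the most of any class there, against 55 in wild type, or 28.7 against 12.9 CPM. The log2 ratio was 1.14 (0.75 to 1.58), and 1.90 without the highest cell of each library. After thinning, 3.25% of these cells in PT I-PpoI, against 0.76% in wild type had a UMI. In cluster 1, which had 924 cells in PT I-PpoI, against 319 in wild type, the levels were 37.5 and 19.0, so Cxcl10 was higher in PT I-PpoI inside that cluster too. Of the tested members, Cxcl10 was the 1 of 5 in the thick ascending limb that was higher by 2-fold or more, where 3.7% of all genes tested in that class were, and 0 were lower, beside 4.95%. T cells had 38.6 against 9.29 CPM, from 24 and 9 UMIs, and Cxcl10 was the 1 of 2 members tested there higher by 2-fold or more, beside 7.27% of all genes, and 0 were lower, beside 7.33%.

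The promoters of the pair are shown because the genes neighbour each other on chromosome 5 and are both known as interferon targets, yet differed in which cells held them. The windows run from 250 bases before to 50 bases after the start (RefSeq, GRCm38.p6), Cxcl10 at chr5:92348840-92349139 and Cxcl9 at chr5:92328030-92328329, both on the minus strand, written 5′ to 3′ along the gene. Capitals mark matches to the interferon-stimulated response element core (GAAA, any 2 bases, GAAA), the gamma-activated site TTCNNNGAA or the NF-kB consensus, searched on both strands.
Cxcl10: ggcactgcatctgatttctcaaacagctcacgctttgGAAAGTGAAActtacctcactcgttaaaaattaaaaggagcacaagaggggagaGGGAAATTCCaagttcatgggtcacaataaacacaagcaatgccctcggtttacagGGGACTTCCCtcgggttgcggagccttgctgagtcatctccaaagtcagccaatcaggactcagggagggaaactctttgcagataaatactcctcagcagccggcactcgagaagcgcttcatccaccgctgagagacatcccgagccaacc
Cxcl9: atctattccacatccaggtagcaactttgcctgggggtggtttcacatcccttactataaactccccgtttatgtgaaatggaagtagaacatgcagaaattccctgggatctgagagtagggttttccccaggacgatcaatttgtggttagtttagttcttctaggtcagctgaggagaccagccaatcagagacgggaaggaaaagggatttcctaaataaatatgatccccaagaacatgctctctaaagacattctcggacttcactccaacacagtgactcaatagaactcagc
The Cxcl10 window held 1 match to the interferon-stimulated response element core, starting 213 bases before the start, and 2 to the NF-kB consensus, at 159 and 103 bases before it, none of them overlapping. The Cxcl9 window held none of the 3 sets of letters. Among the 32851 RefSeq promoter windows of that length, 3.44% held the response element core, 8.30% the gamma-activated site and 4.51% the NF-kB consensus, and a match is only a description.

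Cxcl16, which guides cells that carry Cxcr6 and also binds oxidised lipoprotein, was widely spread, with a UMI in 20 classes in PT I-PpoI and in 19 in wild type. Macrophages had 833 UMIs in PT I-PpoI, against 947 in wild type, or 584 (545 to 625) and 454 (425 to 483) CPM, a log2 ratio of 0.36 (0.23 to 0.50). After thinning, 64.5% and 58.1% of macrophages had a Cxcl16 UMI, with overlapping intervals, against 0% and 0.73% of T cells; 88.5% and 70.0% had one unthinned. Parietal epithelial cells followed at 254 and 268, and dendritic cells at 142 and 127 CPM. Principal cells of the collecting duct had 95.9 and 106 CPM, and so many UMIs (835) in PT I-PpoI that they matched macrophages in number there.

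Proximal tubule, the cell type that carries the transgene, had 99.6 Cxcl16 CPM in PT I-PpoI, against 36.2 in wild type. The log2 ratio was 1.46 (1.24 to 1.68), on 201 and 1204 UMIs. Different clusters made up the class in the 2 libraries. Cluster 7, led by Slc5a12 and Slc5a2 among other genes, held 68.1% of proximal tubule cells in PT I-PpoI, against 14.1% in wild type. Inside it the levels were 119 and 73.4, and the ratio was 0.71 (0.45 to 0.95). In cluster 31, with 23 and 819 cells, the levels were 99.2 and 74.8 and the interval spanned 0 (-0.24 to 0.99). Cxcl16 and Cxcl10 were the 2 of 5 tested members higher by 2-fold or more in proximal tubule, where 16.1% of all genes were, and Ccl5 was the 1 lower, beside 5.03%. Cxcl10 there rested on 17 and 67 UMIs.

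Cxcl1, a neutrophil attractant, was low throughout. Its highest class in both libraries was parietal epithelial cells, with 63 UMIs in PT I-PpoI, against 14 in wild type, or 36.5 (28.0 to 46.7) and 16.3 (8.93 to 27.4) CPM. The log2 ratio was 1.12 (0.31 to 2.11). A UMI was seen in 22 of 91 cells in PT I-PpoI, against 6 of 100 in wild type, but after thinning the shares were 5.62% (1.85 to 12.6) and 3.45% (0.72 to 9.75), which overlap. As with Cxcl9, 0% of T cells in either library had a UMI of Cxcl1, Ccl2 or Ccl8. A single PT I-PpoI cell of the class held 17 Cxcl1 UMIs together with 71 of Ccl2. Of 7 members tested in parietal epithelial cells, Cxcl1 and Ccl2 were higher by 2-fold or more, beside 5.66% of all genes, and Ccl5 was lower, beside 3.7%; Ccl2 and Ccl5 there had 2 and 1 UMIs left in PT I-PpoI, against 1 and 3 in wild type, without the highest cell of each library. Endothelial cells had 52 Cxcl1 UMIs in PT I-PpoI, against 4 in wild type, or 6.93 and 0.70 CPM, and 20 of the 52 lay in 1 cell. Macrophages had 12 and 16 Cxcl1 UMIs, or 8.41 (4.35 to 14.7) and 7.66 (4.38 to 12.4) CPM. In wild type they held more of its UMIs than parietal epithelial cells, and the 2 levels did not differ beyond their intervals. The window below, chr5:90890995-90891294 on the plus strand in the same build, is shown for the overlapping matches to the NF-kB consensus that it holds, marked in capitals.
Cxcl1: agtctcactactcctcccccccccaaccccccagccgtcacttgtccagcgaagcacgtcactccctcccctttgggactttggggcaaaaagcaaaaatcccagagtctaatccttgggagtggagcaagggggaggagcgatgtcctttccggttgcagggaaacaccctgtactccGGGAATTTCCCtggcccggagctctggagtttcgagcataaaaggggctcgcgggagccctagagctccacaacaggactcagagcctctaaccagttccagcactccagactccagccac
One match on the sense strand, starting 71 bases before the start, overlaps another on the antisense strand that begins 1 base later.

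Cxcl12, which binds Cxcr4 and Ackr3, had most of its UMIs in endothelial cells and was also held by fibroblasts, tubule cells and parietal epithelial cells. Fibroblasts had the highest level, 1821 (1664 to 1988) CPM in PT I-PpoI, against 1347 (1137 to 1585) in wild type, but with 33 and 20 cells they fell short of the 50 needed for a ratio. Endothelial cells held 1448 UMIs in PT I-PpoI, against 773 in wild type, or 53.3%, against 54.0%, of the gene's UMIs. Their levels were 193 (183 to 203) and 136 (127 to 146) CPM, a log2 ratio of 0.50 (0.38 to 0.63), so the class as a whole was higher in PT I-PpoI. Thinning left out 85 of 843 endothelial cells in PT I-PpoI, against 911 of 2085 in wild type. Of the 758 and 1174 that remained, 13.3% and 7.84% had a UMI, beside 0% and 0.36% of T cells. The thick ascending limb had 505 Cxcl12 UMIs in PT I-PpoI, against 81 in wild type, or 27.1 and 19.1 CPM. Its log2 ratio was 0.50 (0.16 to 0.86). Proximal tubule had 15 and 315 UMIs, or 7.43 and 9.46 CPM, and parietal epithelial cells had 53.3 and 56.0 CPM, and both intervals of the ratio spanned 0.

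Inside the endothelial cluster that held most Cxcl12 the order in CPM was the opposite. Cluster 9, led by Slc14a1, Mest and Sox17, had 248 CPM in PT I-PpoI, against 402 in wild type, a log2 ratio of -0.69 (-0.84 to -0.55), and -0.71 without the highest cell of each library. Cluster 10, led by Stmn2, Cytl1 and Gja5, had 371 and 507, a ratio of -0.46 (-0.76 to -0.13), on 57 and 32 cells. That lower level rested on 1 wild-type cell with 47 of the 112 UMIs: without the highest cell of each library the levels were 347 and 329, a ratio of 0.07 (-0.31 to 0.49). These clusters made up 39.6% of endothelial cells in PT I-PpoI, against 19.3% in wild type. The other clusters were low: cluster 12, led by Btnl9 and Esm1, had 22.1 against 7.98, and cluster 18, led by Sema3d and Gpr182, had 65.2 against 5.70. Those were higher in PT I-PpoI, from 43 and 24 UMIs in cluster 12 and 32 and 5 in cluster 18. In CPM, Cxcl12 was thus lower in PT I-PpoI within cluster 9 and higher in the class as a whole. The share of cluster 9 cells with a UMI went the other way, 57.8% of 277 cells in PT I-PpoI, against 36.4% of 371 in wild type. Those cells held 4134500 and 1574099 UMIs of all genes, and the share was not thinned to a common depth.

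**Figure D2:**
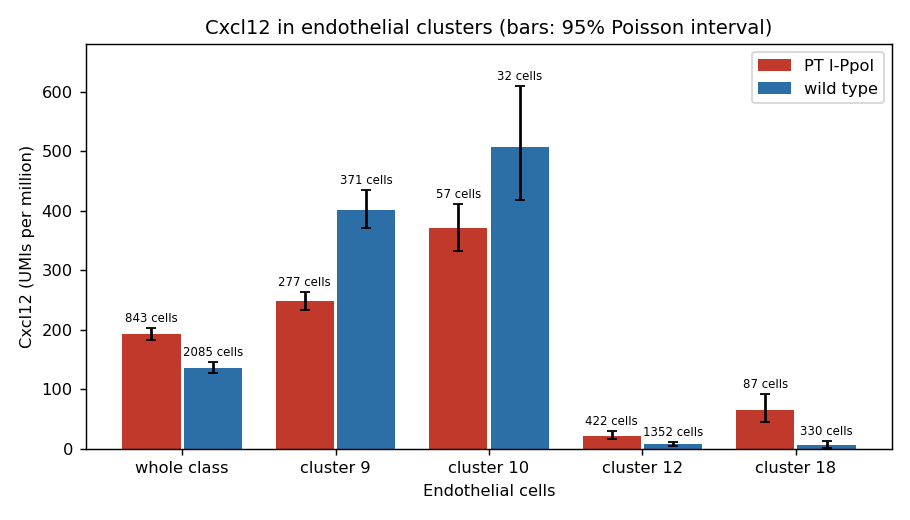
Cxcl12 in CPM (vertical axis) in all endothelial cells and in each endothelial cluster, PT I-PpoI left of wild type, with 95% Poisson intervals and cell counts. PT I-PpoI is higher in the whole class (193 against 136) and lower in cluster 9 (248 against 402) and cluster 10 (371 against 507), where the order turns without 1 wild-type cell.

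The endothelial class also held low levels of 4 of the 8 members tested there that were higher by 2-fold or more in PT I-PpoI, namely Cxcl9, Cxcl10, Cxcl1 and Ccl2, beside 6.84% of all genes; 0 were lower, beside 5.73%. None of the 4 exceeded 14 CPM. Cxcl10 had 99 and 29 UMIs, and 89 of those in PT I-PpoI lay in cluster 12, in 8 of its 422 cells. Of the 65 Ccl2 UMIs in PT I-PpoI, 55 lay in 1 cell, and without the highest cell of each library the ratio was -0.25.

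Cx3cl1, or fractalkine, binds Cx3cr1 on monocytes and macrophages. It was spread thinly over tubule, vessel and fibroblast cells and was nearly absent from white cells. The thick ascending limb had 533 UMIs in PT I-PpoI, against 170 in wild type, or 28.6 (26.2 to 31.1) and 40.0 (34.2 to 46.5) CPM. The log2 ratio was -0.49 (-0.74 to -0.23), lower in PT I-PpoI. Each of the 3 thick ascending limb clusters was on the same side: 35.8 against 49.6 in cluster 1, 9.37 against 24.5 in cluster 2 and 20.8 against 25.6 in cluster 3, where the interval spanned 0. As a mean over cells, which lets shallow cells count equally, the ratio was -0.00041, so this difference turned on the weighting of cells. Thinning left out 143 of 1405 cells of that class in PT I-PpoI, against 421 of 948 in wild type, and the shares of the rest were 4.83% (3.72 to 6.17) and 6.45% (4.51 to 8.90), beside 0% and 0.36% of T cells. Endothelial cells had 44.3 and 36.8 CPM, a ratio of 0.27 (0.01 to 0.52), and fibroblasts 99.3 and 102. In wild type the levels of thick ascending limb and endothelial cells did not differ beyond their intervals.

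Among the CC chemokines, Ccl2 was higher in PT I-PpoI in several myeloid groups. Macrophages had 295 UMIs in PT I-PpoI, against 101 in wild type, or 207 (184 to 232) and 48.4 (39.4 to 58.8) CPM, a log2 ratio of 2.09 (1.77 to 2.44). Dendritic cells had 196 (172 to 224) and 36.1 (25.8 to 49.2), a ratio of 2.43 (1.95 to 2.96), so the 2 classes did not differ beyond their intervals in either library. A Ccl2 UMI was seen in 39 of 253 macrophages in PT I-PpoI, against 36 of 686 in wild type, and after thinning the shares were 10.9% (7.30 to 15.4) and 4.98% (3.36 to 7.08), which do not overlap. The highest macrophage held 90 of the 295 UMIs in PT I-PpoI, against 19 of the 101 in wild type. Without the highest cells the ratio was 1.88, and without the 5 highest it was 1.68. Finer clustering kept the difference in the largest macrophage cluster (135 against 32.8), in monocyte-like cells (205 against 27.2) and in the dendritic cluster (187 against 46.1). Parietal epithelial cells had 42.3 against 11.7, with 71 of 73 UMIs of PT I-PpoI in 1 cell.

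Of the 8 members tested in macrophages, Cxcl9, Ccl2 and Ccl8 were higher in PT I-PpoI by 2-fold or more, beside 6.33% of all genes in that class, and 0 were lower, beside 6.57%. In dendritic cells Ccl2 was the 1 of 6 members higher, beside 8.6%, and Cxcl10, Ccl5 and Ccl8 were lower, beside 4.73%. The Ccl8 difference was 1 cell, which held 14 of the 15 wild-type UMIs, against 4 UMIs in all in PT I-PpoI. The choice of genes used these levels, so nothing is read from these counts.

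Ccl8, known in the mouse as a ligand of Ccr8, lay almost wholly in macrophages, which held 95.5% of its UMIs in PT I-PpoI, against 89.1% in wild type. Its level was 489 (454 to 527) CPM in PT I-PpoI, against 74.2 (63.0 to 86.9) in wild type, from 698 and 155 UMIs, a log2 ratio of 2.72 (2.47 to 2.98). Few cells carried it: 18 of 253 macrophages in PT I-PpoI, of which the highest held 268, 182, 115 and 63 UMIs, against 9 of 686 in wild type, of which the highest held 114 and 23. After thinning the shares were 6.05% (3.42 to 9.78) and 1.20% (0.48 to 2.46), which do not overlap.

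Most of that Ccl8 sat in 1 small group of cells. At the finer clustering, macrophage cluster 25, led by Ccl8, Pf4, Folr2, Cd209f, F13a1, Mrc1 and Cd163, had 11 cells in PT I-PpoI, against 6 in wild type, and held 672 and 148 Ccl8 UMIs. The level within the cluster was 6659 and 5000 CPM, a log2 ratio of 0.41 (0.15 to 0.68); Ccl8 is among the genes that set the cluster apart, so this is a description only. In wild type 114 of the 148 UMIs lay in 1 cell, and without the highest cell of each library the levels were 4682 and 1410 CPM, a ratio of 1.71 (1.23 to 2.28). The larger cluster 24 had 20.0 and 10.6 CPM. Cluster 25 made up 4.38% (2.21 to 7.71) of macrophages in PT I-PpoI, against 0.85% (0.31 to 1.84) in wild type, a larger share in PT I-PpoI. Ccl2 was 1159 and 1115 CPM in the same cluster, with a ratio of 0.04 (-0.51 to 0.66), but 90 of its 117 and 19 of its 33 UMIs lay in 1 cell each. Without those cells the levels were 313 and 545, from 27 and 14 UMIs, a ratio of -0.82 (-1.78 to 0.24). The 2 genes were also read in the same cells: 10 of 18 macrophages with Ccl8 had Ccl2 in PT I-PpoI, against 5 of 9 in wild type. The Ccl8 window, chr11:82114935-82115234 on the plus strand, is shown for comparison with those above; it held no match to the 3 motifs.
Ccl8: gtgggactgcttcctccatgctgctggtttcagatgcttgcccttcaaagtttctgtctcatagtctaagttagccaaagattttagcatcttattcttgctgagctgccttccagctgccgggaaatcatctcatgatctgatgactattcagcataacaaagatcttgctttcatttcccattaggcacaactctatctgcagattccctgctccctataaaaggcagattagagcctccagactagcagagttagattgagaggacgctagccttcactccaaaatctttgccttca

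**Figure D3:**
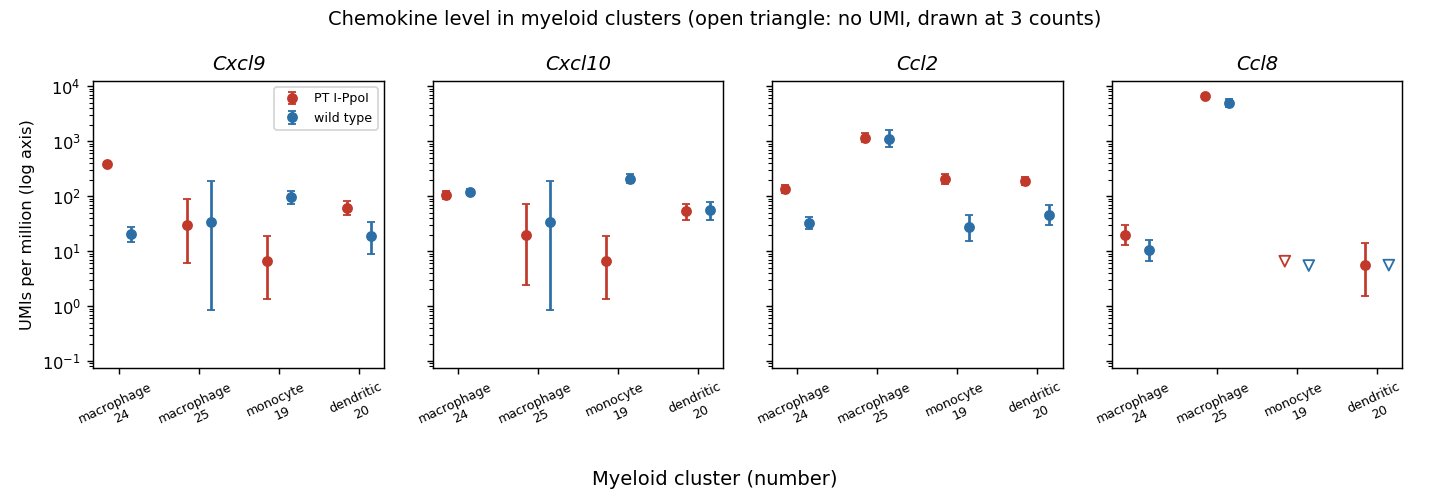
Cxcl9, Cxcl10, Ccl2 and Ccl8 in CPM (vertical log axis) in 4 myeloid clusters of the finer clustering, PT I-PpoI left of wild type, with 95% Poisson intervals. Ccl8 is near 6659 and 5000 in cluster 25 and 20.0 and 10.6 in cluster 24, and Ccl2 is higher in PT I-PpoI in clusters 24, 19 and 20.

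Ccl5, or RANTES, is stored and released by effector T and NK cells. T cells had 2422 UMIs in PT I-PpoI, against 6987 in wild type, or 3896 (3743 to 4055) and 7209 (7041 to 7380) CPM, a log2 ratio of -0.89 (-0.96 to -0.82), lower in PT I-PpoI. The share of T cells with a UMI was close: 60.3% and 56.3%, or 56.3% and 53.6% after thinning, beside 0.63% and 1.62% of distal convoluted tubule cells. A T cell with Ccl5 held a mean of 31.9 of its UMIs in PT I-PpoI, against 33.3 in wild type, while the median T cell held 4312 UMIs of all genes, against 2392. NK cells had 11347 CPM in PT I-PpoI, from 12 cells, and 5113 in wild type, from 98 cells. The NK level lay above that of T cells in PT I-PpoI and below it among wild-type cells.

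Single barcodes outside T and NK cells carried much of the remaining Ccl5. In PT I-PpoI, 1 barcode in the intercalated cell class held 591 Ccl5 UMIs, or 14.0% of the library's, among 48077 UMIs, with 67 of Cxcl10 and 0 UMIs of the 17 T and NK marker genes. It had 5 of 8 intercalated cell markers and 5 of 7 connecting tubule markers. A thick ascending limb barcode of 22048 UMIs held 67 Cxcl10 and 53 Ccl5 UMIs, again with 0 T and NK marker UMIs. In wild type the Ccl5 of a proximal tubule barcode (63 UMIs), a mural barcode (56), a fibroblast barcode (56) and a parietal epithelial barcode (54) came with 25, 33, 20 and 18 UMIs of T and NK markers. A wild-type dendritic barcode held 191 Ccl5 UMIs with 1. Whether any of these barcodes held more than 1 cell was not tested beyond the doublet caller. The mural level was 1.89 CPM in PT I-PpoI, against 407 in wild type, where it came mostly from 17 cells of cluster 22. All 17 held 5 or more Ccl5 UMIs. The highest, the mural barcode named above, had 7 of 7 NK markers, 15 of 16 proximal tubule markers and 8 of 8 mural markers. Estimated free RNA of the mural class was 15.2% of UMIs in PT I-PpoI, against 55.9% in wild type. Whether the Ccl5 of cluster 22 came from mural cells was not tested. In the other mural cluster, 21, which held all mural cells of PT I-PpoI, the levels were 1.89 and 49.3, and 34 of the 36 wild-type UMIs there lay in 1 cell.

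Ccl20, which binds Ccr6, was nearly absent. All 62 of its UMIs in wild-type connecting tubule lay in 1 cell of 5989 UMIs, against 1 UMI in PT I-PpoI connecting tubule. Over all kept cells it had 6 and 64 UMIs, of which 5 of the 6 lay in 1 intercalated cell. The log2 ratio of connecting tubule, -6.80 (-12.70 to -4.84), is therefore the difference of 1 cell.

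The members differed in how unevenly they were spread over cells. The 10 highest cells held 88.3% of Cxcl9, 93.6% of Ccl8 and 62.0% of Ccl2 UMIs in PT I-PpoI, and 80.6%, 97.1% and 47.1% in wild type. They held 5.60% and 3.48% of Cxcl16, 6.23% and 7.35% of Cx3cl1 and 19.5% and 19.3% of Cxcl12. Between these lay Cxcl1 at 49.7% and 65.9%, Cxcl10 at 34.1% and 37.4% and Ccl5 at 35.8% and 18.0%, while all Ccl20 UMIs lay in the 10 highest cells of each library.

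**Figure D4:**
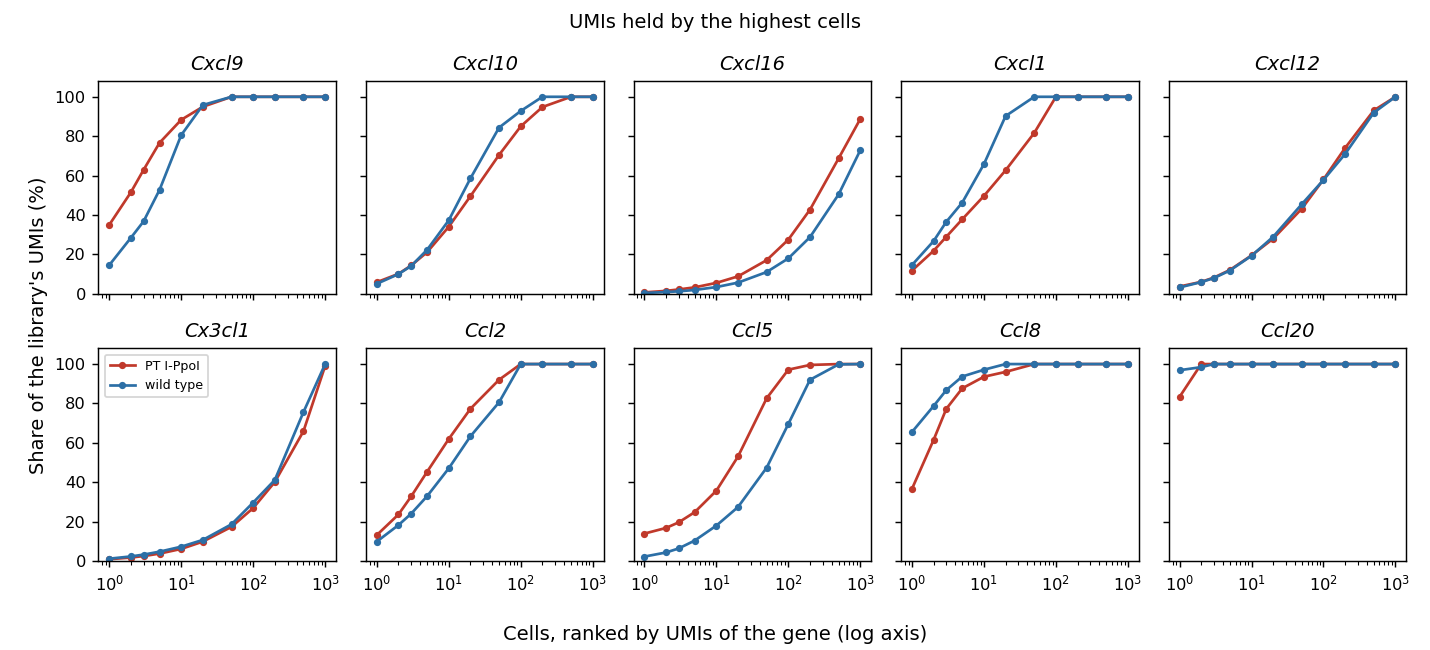
Share of a library's UMIs of each gene (vertical axis, %) held by the highest cells, against the number of cells ranked by UMIs of the gene (horizontal log axis), PT I-PpoI and wild type. Ccl8 and Cxcl9 reach over 80% within 10 cells in both libraries, while Cxcl16 and Cx3cl1 stay under 10%.

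**Figure D5:**
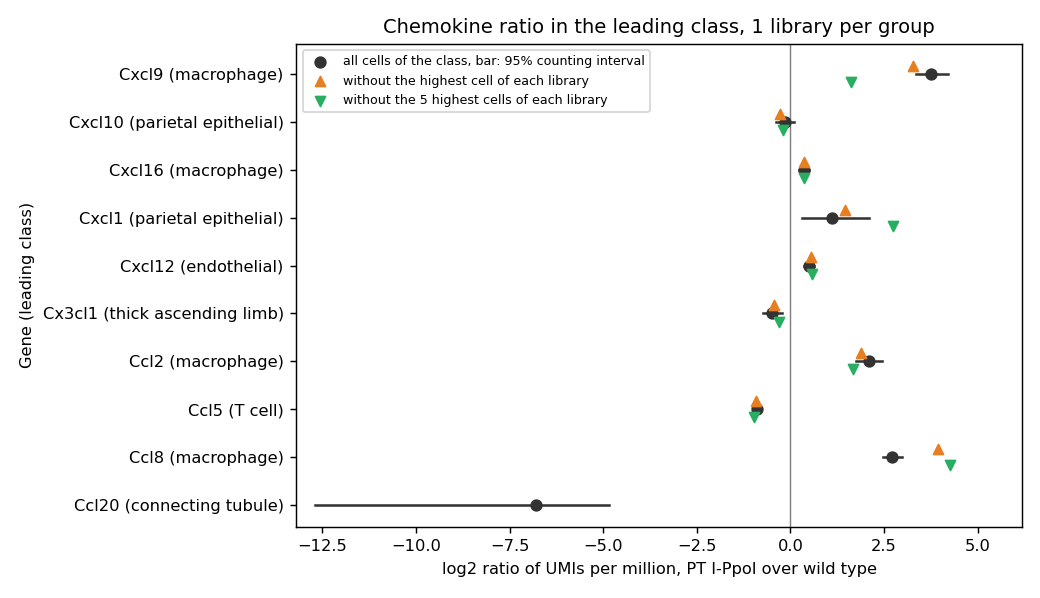
log2 ratio, PT I-PpoI over wild type, of CPM of each gene in its leading class (circles, with 95% counting intervals), without the highest cell of each library (upward triangles) and without the 5 highest (downward triangles). Cxcl9, Ccl2 and Ccl8 stay above 0 in each, and Ccl20 has no value without its highest cell.

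Barcodes of at most 100 UMIs, which are not cells and hold free RNA, gave a readout that did not use the cell names. In them Cxcl9 was 7.31 CPM in PT I-PpoI, against 0.60 in wild type, from 50 and 2 UMIs, and Ccl8 was 10.8 and 0.60, from 74 and 2. Cxcl10 was 19.1 and 9.27, Cxcl12 was 20.2 and 7.48, and Cx3cl1 was 16.2 and 6.88. Ccl5 was 37.3 and 107, and Cxcl16 was 43.3 and 41.6. Ccl2 was 4.24 and 2.99, from 29 and 10 UMIs, a smaller ratio than in macrophages. Cxcl1 was 1.17 and 0.60, from 8 and 2 UMIs, and Ccl20 had 1 UMI and 0. These come from the same 2 libraries and are no replicate. They can also differ with the cells that each library holds: proximal tubule was 3.27% of kept cells in PT I-PpoI, against 49.4% in wild type. Cx3cl1, higher in these barcodes of PT I-PpoI, was lower in its leading class. The barcodes that gave the ambient profile for cell calling had a median of 61 UMIs in PT I-PpoI, against 256 in wild type. The limit of 100 UMIs lies between these medians, so it can take in unlike barcodes in the 2 libraries. The part of this in the differences above was not tested.

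Receptors of these ligands were read in the classes that held most of them. Cxcr3, the receptor of Cxcl9 and Cxcl10, stood in T cells at 248 CPM in PT I-PpoI, against 208 in wild type, a log2 ratio of 0.25 (-0.06 to 0.56). Cxcr6, the receptor of Cxcl16, was 669 and 519 in T cells (0.37, 0.18 to 0.56), and Cx3cr1, that of Cx3cl1, was 508 and 428 in macrophages (0.25, 0.11 to 0.39). Ccr2, the receptor of Ccl2, was 498 and 452 in dendritic cells (0.14, -0.03 to 0.32). Cxcr2, the receptor of Cxcl1, was held by neutrophils, and the most UMIs of Ackr3, a scavenger of Cxcl12, by principal cells at 151 and 146 CPM. Ackr3 was higher in PT I-PpoI in thin limb, at 295 against 113 (1.38, 1.05 to 1.73), and was 175 against 135 in parietal epithelial cells (0.37, 0.06 to 0.69).

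Genes that act upstream of the interferon-inducible pair were also read. Ifng, whose protein induces Cxcl9, had 397 UMIs in T cells of PT I-PpoI and 224 in wild type, or 639 and 231 CPM, a log2 ratio of 1.46 (1.23 to 1.71). Irf1, an interferon-induced transcription factor, was 121 and 57.0 in macrophages (1.09, 0.74 to 1.44). In parietal epithelial cells Irf1 was 88.6 and 36.2 (1.27, 0.73 to 1.90), where the Cxcl10 interval spanned 0. Irf1 was not higher in every class. Endothelial cells had a lower level, 98.8 and 115 (-0.22, -0.37 to -0.06), as did principal, intercalated and distal convoluted tubule cells. Dendritic, thin limb, thick ascending limb, connecting tubule and proximal tubule cells had a higher one. In T and mural cells the Irf1 interval spanned 0. In macrophages Tnf was 125 and 70.4 (0.82, 0.50 to 1.15) and Il1b was 1850 and 2430 (-0.39, -0.46 to -0.33). A link between these genes and the chemokines was not tested.

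The genes most like each member were sought over 26 points, 13 classes in 2 libraries, among 6732 genes, by Pearson correlation of log2(CPM + 1). The points share libraries and depth, so this describes a pattern only. Only the first of each member's most like genes is named. Ccl8 was most like Ccl12 (r = 0.96), another CC chemokine gene, Cxcl9 like Ifi207 (0.92), and Ccl2 like H2-Ab1 (0.93). Ccl5 was most like Hcst (0.92), Cx3cl1 like Nfib (0.92), Cxcl16 like Sirpa (0.88), Cxcl12 like Plcb1 (0.87), Cxcl1 like Rtn4 (0.82) and Cxcl10 like Pdlim4 (0.76).

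Over the 13 classes, the 46 ligand and 23 receptor genes gave 219 pairs of a gene and a class with 10 or more UMIs. Of these, 36 were higher in PT I-PpoI by 2-fold or more and 38 lower, beside 6.31% and 5.56% of all 145965 pairs of a gene and a class. The 10 members gave 74 of the pairs, with 19 higher and 17 lower. In connecting tubule Cxcl16 was the 1 of 5 members tested that was higher, beside 5.57% of all genes, and Cxcl10 and Ccl20 were the 2 lower, beside 3.47%. In distal convoluted tubule 0 of 4 were higher, beside 3.28%, and Cxcl10 and Cxcl16 were lower, beside 7.54%. In intercalated cells Cxcl10, Cxcl1 and Ccl5 were 3 of 6 higher, beside 2.32%, and Cxcl12 was lower, beside 6.41%. In mural cells 0 of 5 were higher, beside 7.05%, and Cxcl10 and Ccl5 were lower, beside 7.27%. In principal cells 0 of 7 were higher, beside 3.71%, and Cxcl9, Cxcl10 and Ccl2 were lower, beside 6.01%. In thin limb Cxcl1 was the 1 of 6 higher, beside 5.62%, and Cxcl10 and Ccl5 were lower, beside 3.74%. Many of these differences were 1 cell. The highest cell of each library was then left out, a comparison chosen after seeing the data. It was made for the members only, so no share of all genes stands beside it. Of the pairs, 14 of the 19 higher and 6 of the 17 lower were still past 2-fold. Another 3 of the higher and 9 of the lower had under 10 UMIs left. These were Cxcl1 and Cxcl12 in intercalated cells, Cxcl1, Cxcl10 and Ccl5 in thin limb, Cxcl10 in mural cells, Cxcl9 and Ccl2 in principal cells, Ccl20 in connecting tubule, Ccl8 in dendritic cells, and Ccl2 and Ccl5 in parietal epithelial cells. Cxcl10 in principal cells had a log2 ratio of -0.16 without those cells, of which the wild-type one held 40 of 44 UMIs. The direction turned in 3 pairs. Ccl5 in intercalated cells was -2.39 (-3.32 to -1.56), from 18 and 36 UMIs, Cxcl10 in connecting tubule was 1.52, from 11 and 1, and Ccl2 in endothelial cells was -0.25, from 10 and 9.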

How the data were processed

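Single-cell RNA of kidney cortex was measured in 1 PT I-PpoI library and 1 wild-type library. The deposited values are unfiltered UMI counts per gene and barcode, made by the authors; Cell Ranger 3.1, Seurat 3 and mm10 are named per the submitters' processing notes, while the matrix headers name Cell Ranger 4, per the file headers. From these counts cells were called here (an order-of-magnitude threshold from 3000 expected cells, then barcodes of 500 or more UMIs that differed from an ambient profile at a rate of 0.01). Cells with under 200 genes or over 50% mitochondrial UMIs and Scrublet doublets (89 and 264) were removed. Both libraries were clustered together with scanpy 1.11.5 (2000 variable genes, 30 components, Leiden resolution 1), and clusters were named from fixed marker lists. UMIs were summed per class and library. Ratios used a prior of 0.5 counts, with exact conditional binomial intervals; levels have exact Poisson and shares exact binomial (Clopper-Pearson) intervals at 95%. A count of 0 allows up to 3 counts. UMI totals were 93257620 and 107977310. The interval procedure was tested on simulated Poisson counts per class. These hold only the counting error that the intervals assume, so the test cannot show how the intervals hold for UMIs that lie in few cells. Free RNA was estimated from other classes' markers and left in.

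The members and gene lists were chosen with earlier results of these data known. All 10 members are named, the other chemokine ligand and receptor genes with 100 or more UMIs are named with their leading class except for an item that is not reported here, and the 3 genes of highest correlation were sought for each member. The leading class is the class with the most UMIs of a gene over both libraries. Gene levels are not corrected for length, because 3' UMI counts do not scale with it. Alternatives were other cell filters, clustering, free-RNA subtraction, scaling by edgeR 4.0.16 TMM or by median-of-ratios size factors, a mean over cells, and leaving out the highest cells.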

Additional observations from a re-analysis of the deposited data

How the results depend on the processing

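Settings were changed one at a time, and of the 10 ratios only that of Cxcl10 in parietal epithelial cells, whose interval spans 0, changed sign, to 0.012 with cells of 1000 or more UMIs and as a mean over cells. Leaving out cells over 30% mitochondrial UMIs gave log2 ratios of 0.73 for Cxcl12 in endothelial cells and -0.75 for Ccl5 in T cells. Keeping doublets gave 4.26 for Cxcl9 and 0.51 for Cxcl16 in macrophages and -0.70 for Ccl5. A Leiden resolution of 2 gave 0.75 for Cxcl12, and clustering the libraries separately gave 0.21 for Cxcl16. As a mean over cells the ratios were 3.24 for Cxcl9, 0.35 for Cxcl10 in parietal epithelial cells, 0.20 for Cxcl1 there, 0.81 for Cxcl12, -0.00041 for Cx3cl1 in the thick ascending limb, -0.71 for Ccl5 and 2.43 for Ccl8 in macrophages. TMM factors gave 0.31 for Cxcl12 and -1.003 for Ccl5, and median-of-ratios size factors 0.32 and -1.01. Without the highest cell of each library the ratio was 3.28 for Cxcl9 and 3.94 for Ccl8. Without the 5 highest, chosen after seeing the data, it was 1.63 for Cxcl9, 2.75 for Cxcl1, 1.68 for Ccl2, -0.98 for Ccl5 and 4.27 for Ccl8. With every gene that had a UMI, 93 chemokine gene and class pairs were higher and 120 lower, against 36 and 38. The shares of all genes given above hold for the limit of 10 UMIs. None is given without that limit, so nothing is read from these counts. The cause of these shifts was not tested. The same pairs of a member and a class without the highest cell of each library, also chosen after seeing the data, numbered 14 higher and 6 lower, against 19 and 17, and Cxcl12 in endothelial cluster 10 turned to 0.068. No share of all genes stands beside those numbers of pairs. The other 118 values stayed within their interval or within 1.5 times the count. Those counts include the leading class in each library, which was kept by 7 to 10 of the 10 genes. In PT I-PpoI, Cxcl16 moved to macrophages under 4 settings, Cxcl1 to endothelial cells as a mean over cells and Cxcl10 to parietal epithelial cells at the 30% limit, and Ccl5 to intercalated cells with libraries clustered separately. In wild type, Cxcl9 moved to dendritic or monocyte-like cells under 4 settings, Cxcl16 to macrophages and Ccl20 to principal cells under 2 each, Cxcl1 to parietal epithelial cells at the 30% limit and Cx3cl1 to endothelial cells as a mean over cells. Of the shares of cells with a UMI, 17 of 40 moved beyond their interval at another depth. Ccl20 has no value without its highest cells, and the T cell, parietal epithelial and connecting tubule classes were missing under some clusterings. No paired analysis was possible because each group has 1 library.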

Other observations

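Other chemokine ligand genes filled in the macrophage picture. Ccl4 and Ccl3, which activated macrophages make, had close levels in the libraries: Ccl4 was 4567 CPM in PT I-PpoI macrophages, against 4785 in wild type, and Ccl3 was 1698, against 1877. The neutrophil attractant Cxcl2 was 613, against 824. Ccl12, which binds Ccr2 in the mouse, was 231, against 106, a log2 ratio of 1.13, Ccl7 was 35.1, against 12.0 (1.54), and Pf4 was 412, against 249 (0.73). Ccl6 was 285, against 191 (0.58), and Ccl9 was 162, against 94.9 (0.77), in dendritic cells. Xcl1, a T and NK cell product, was 894 CPM in T cells of PT I-PpoI, against 464 (0.95), and its receptor gene Xcr1 was held by dendritic cells at 147, against 115. Cxcl14 was led by fibroblasts, and Ccl25, Ccl27a and Ccl28 by tubule cells. The lymphatic chemokine Ccl21a lay in 6 endothelial cells of PT I-PpoI, 1 of which held 292 of its 469 UMIs, and in 9 of wild type. Among receptor genes not given above, Cxcr4 was 56.8 CPM in PT I-PpoI macrophages, against 39.3 in wild type, and Ccrl2 was 133, against 135, in endothelial cells. In dendritic cells Ccr1 was 31.1, against 34.3, and Ccr9 was 38.1, against 32.5. Ccr7 and Ccr10 were led by B or plasma cells, which were too few for a ratio. Of the 46 ligand genes, 10 had no UMI in kept cells.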
